A study of Mus musculus with 8 samples.

Results

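The genes described here are 30 type I interferon response genes, chosen by name, and 29 of them could be read among the 18820 mouse genes with a probe set of a single gene symbol. Each of the 29 had exactly 1 such probe set. Ifi44 had none and was not analysed here. The values come from T cells (CD3-positive) isolated at day 30 from xenografts of human embryonic stem cell derived tissue in wild-type CD1 mice, an outbred strain. Tolerant hosts, 4 samples, had been injected with antibodies to CD4, CD8 and CD40L, and rejecting hosts, also 4 samples, were untreated. The samples of both groups thus share the mouse strain, the human graft and the CD3 isolation. The labels name neither the grafted tissue nor the number of mice. If samples shared a mouse, the p-values would measure a spread that is partly technical.

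Type I interferons are secreted when a cell senses viral or misplaced nucleic acid. They bind the receptor made of Ifnar1 and Ifnar2, whose kinases include Jak1 and Tyk2. The signal reaches the nucleus through a factor, ISGF3, that holds Stat2 and Irf9. It binds the interferon-stimulated response element in promoters and switches on antiviral genes. In T cells the same signal is known to affect survival, proliferation and effector function, depending on when it arrives.

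The response element is the feature these genes are known for, so it was looked for in their promoters first. The letters GAAA-NN-GAAA (N being any base), on either strand with overlapping matches allowed, were searched in the 250 bases before each annotated start, with sequences from RefSeq, build GRCm38.p6. Promoters were given for 21 of the 30 genes, and 8 of these 21 (38.1%) held the motif. Of all 27025 genes with a promoter in the same table, 936 (3.46%) held it. The 8 genes were Isg15, Ifit1, Ifit3, Oas1a, Oas3, Bst2, Rsad2 and Trim30a. Printed below are 60-base windows that show how the motif is placed, 5′ to 3′ on the strand of the gene, with motif letters in capitals. Oasl2 is added because it had the largest difference over all 8 arrays of any gene in the group. No match in a window says only that these letters are not there.
Isg15, chr4:156200856-156200915, minus strand: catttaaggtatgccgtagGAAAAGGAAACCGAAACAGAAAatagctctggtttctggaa
Ifit1, chr19:34640770-34640829, plus strand: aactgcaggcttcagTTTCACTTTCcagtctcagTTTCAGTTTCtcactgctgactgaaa
Oas1a, chr5:120907526-120907585, minus strand: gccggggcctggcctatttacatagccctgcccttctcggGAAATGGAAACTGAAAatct
Oas3, chr5:120777700-120777759, minus strand: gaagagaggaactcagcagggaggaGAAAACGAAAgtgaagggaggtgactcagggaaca
Bst2, chr8:71537565-71537624, minus strand: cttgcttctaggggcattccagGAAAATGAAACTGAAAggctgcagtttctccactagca
Oasl2, chr5:114896874-114896933, plus strand: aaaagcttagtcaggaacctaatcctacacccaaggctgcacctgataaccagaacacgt
Isg15 held 3 overlapping matches, the first starting 78 bases before its start. Ifit1, Oas1a and Bst2 held 2 matches each and Oas3 held 1. Ifit1 carries the motif in the reverse orientation, and in Oas1a the last match starts only 14 bases before the start.

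The abundant transcripts Actb and B2m divided the arrays mainly by number. Actb values ran from 6.54 to 7.82 where the replicate number was 3 or 4, and from 1.62 to 1.95 where it was 1 or 2. B2m also differed by group within each set. It was higher in tolerant samples on numbers 3 and 4 (6.44 and 5.85, against 4.69 and 4.75). On numbers 1 and 2 it was lower in tolerant samples (0.98 and 1.37, against 1.60 and 2.35). Values are RMA values on a log2 scale, and levels of different probe sets are not comparable, since probes differ in affinity. An olfactory receptor (Olfr) line was drawn for each array, the 99th percentile of its 1006 Olfr probe sets, genes not expected in T cells. This line marks the background of an array but does not remove differences in affinity, so a gene below it may still be expressed. The line lay between 1.01 and 1.41 on tolerant arrays and between 1.03 and 1.19 on rejecting arrays. T cell identity was only partly visible: Cd3e lay above the line on 5 arrays, Cd3d and Cd247 on 0, and of 10 measured T cell markers 6 lay above it on tolerant array 4 and 0 on tolerant array 2. Results follow for all 8 arrays together and then for numbers 3 and 4 and numbers 1 and 2 apart, within which the study's groups are balanced.

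Most interferon response genes lay below the Olfr line on each of the 8 arrays, and tolerant array 4 had the most above it. In bulk RNA such as this, fewer cells of a type and less RNA per cell cannot be told apart. The number of the 29 genes above the line was 0, 0, 3 and 10 on tolerant arrays 1 to 4, against 0, 0, 4 and 1 on rejecting arrays 1 to 4. Over all genes, the share above the line was 2.57%, 2.07%, 16.1% and 15% on tolerant arrays 1 to 4, and 4.79%, 5.73%, 13.6% and 8.15% on rejecting arrays 1 to 4. The 10 genes on tolerant array 4 make 34.5% of the 29, above the 15% of all genes there. On tolerant array 3 the share was 10.3%, below the 16.1% of all genes on that array, and on rejecting arrays 3 and 4 it was 13.8% and 3.45%. The 10 genes were Oasl2, Ifi27l2a, Oasl1, Isg20, Zbp1, Usp18, Irf7, Trim30a, Parp14 and Oas2. The 3 on tolerant array 3 were Oasl1, Oasl2 and Rtp4. On rejecting array 3 they were Zbp1, Isg20, Oasl1 and Oas2, and on rejecting array 4 the 1 gene was Isg20.

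**Figure D1:**
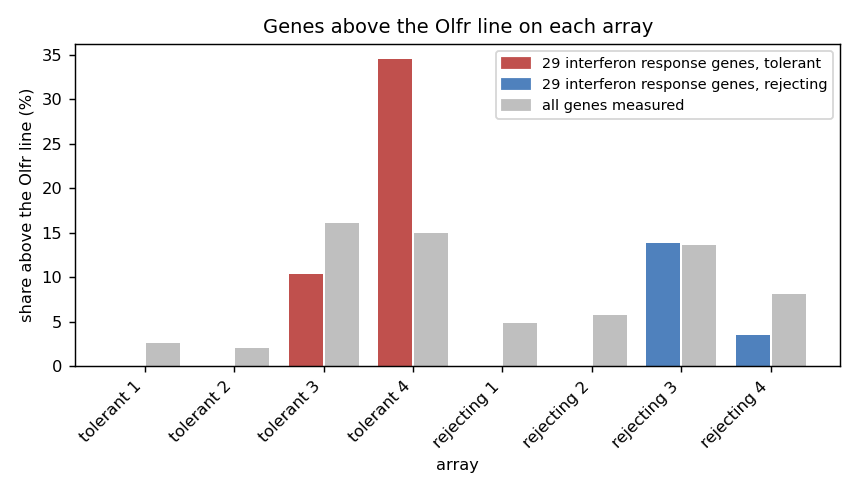
Share of genes above the Olfr line on each array (vertical axis, percent; horizontal axis, the 8 arrays). Coloured bars are the 29 interferon response genes (red, tolerant; blue, rejecting) and grey bars all 18820 genes; tolerant array 4 reaches 34.5% against 15% of all genes.

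No gene of the group was above the line on more than 3 arrays. Of the 29, 18 never crossed it, beside 75.3% of all genes; 6 crossed it on 1 array, 3 on 2 arrays and 2, Isg20 and Oasl1, on 3 arrays. The 5 genes above it on at least 2 arrays compare with 15.6% of all genes, and the 0 above it on all 4 arrays numbered 3 and 4 compare with 5.99% of all genes. The line cuts close to some values. On tolerant array 4, with a line at 1.01, Oas2 lay just inside at 1.02 and Ddx58 just outside at 0.95.

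The position of the genes within the Olfr distribution is a second view of them against the background of each array. The median interferon response gene exceeded 74.4%, 76.1%, 92.3% and 96.3% of Olfr probe sets on tolerant arrays 1 to 4, and 76.1%, 67.3%, 84.0% and 87.3% on rejecting arrays 1 to 4. The median of all genes exceeded 72.8%, 71.4%, 93.6% and 93.1% on the tolerant arrays, and 76.4%, 74.2%, 87.8% and 87.8% on the rejecting arrays. The median interferon response gene thus lay above the median of all genes on tolerant arrays 1, 2 and 4 and below it on the other 5 arrays. Tolerant array 4 gave the highest value of all 8 arrays for 15 of the 29 genes, where 9.85% of all genes had their highest value there. For the other arrays the count ran from 0 to 5.

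**Figure D2:**
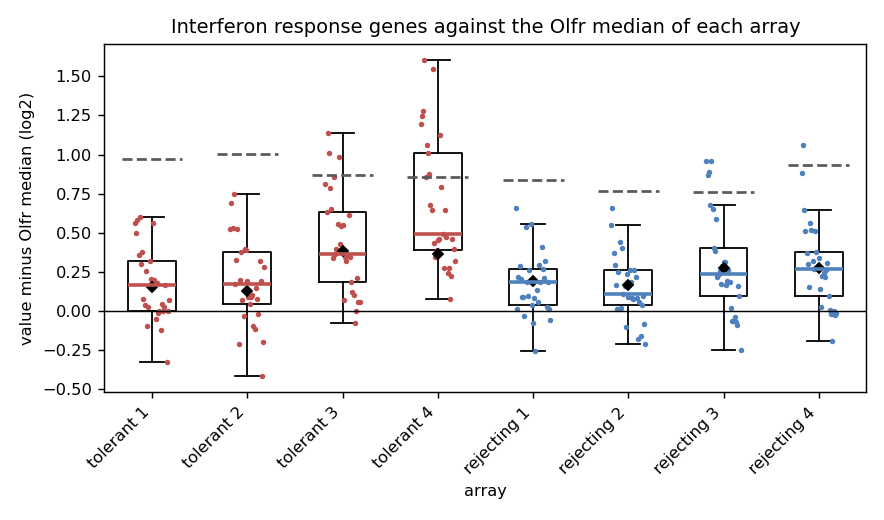
Values of the 29 interferon response genes minus the Olfr median of the same array (vertical axis, log2), by array. Dots are genes, boxes their quartiles with whiskers within 1.5 interquartile ranges, black diamonds the median of all genes and dashed lines the Olfr line; the box of tolerant array 4 lies highest, with its upper part above the line.

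**Figure D3:**
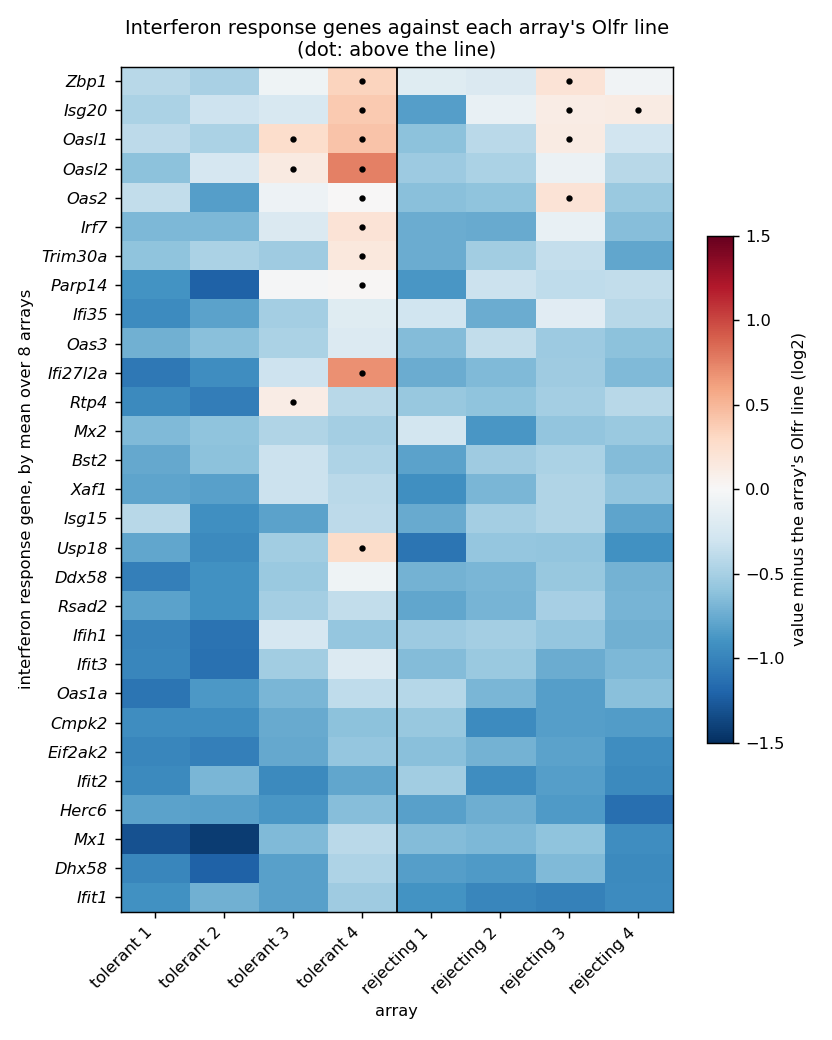
Value of each of the 29 genes minus the Olfr line of the array (colour, log2), with tolerant arrays left and rejecting arrays right of the vertical line. Dots mark values above the line, which fall on arrays numbered 3 and 4 only; 10 of the 18 dots are on tolerant array 4.

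Between tolerant and rejecting samples, 0 of the 29 genes passed limma's test over all 8 arrays, each with an adjusted p of 1. The difference (log2, tolerant minus rejecting) was positive for 24 of 29 genes, against 50.1% of all probe sets, and its median was 0.09, against 0.00 over all probe sets. The median standard error (SE) of these differences was 0.14. At an unadjusted p under 0.05, 2 genes were higher in tolerant samples (Ifit1 and Oasl2) and 0 were lower, beside 1.47% higher and 1.42% lower of all probe sets (2.89% together). With the set of arrays (1 and 2, or 3 and 4) as a block, 4 of the 29 genes were higher at that level and 0 lower. Of all 21218 probe sets, 660 were higher and 527 lower with this block. Together these are 1187 probe sets, against 613 without the block, and again 0 of the 29 genes passed after adjustment. Without tolerant array 4 and with no block, no gene of the 29 reached that level, and 18 of 29 differences were positive. The groups overlapped for all 29 genes, beside 1.09% of probe sets with all tolerant values higher and 1.13% with all lower. The same test called 0% of all 21218 probe sets at adjusted p under 0.05, so the count of 0 is also that of the whole table.

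On the arrays numbered 3 and 4, again 0 of 29 genes passed (lowest adjusted p = 0.602 in limma, 2 against 2 arrays), beside 0.0518% of all probe sets. Differences were positive for 24 of 29 genes, against 48.2% of all probe sets, with a median of 0.15, against -0.01 over all. Of the 29, 11 had both tolerant values above both rejecting values and 0 the reverse, beside 19.3% and 20% of all probe sets. At an unadjusted p under 0.05, 3 were higher (Oasl2, Oasl1 and Parp14), beside 4.63% of all probe sets, or 7.2% in either direction. The median rests on tolerant array 4: without it the median was 0.05 with 21 of 29 positive, and without tolerant array 3 it was 0.25 with 26 of 29 positive.

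On the arrays numbered 1 and 2, 0 of 29 passed (lowest adjusted p = 0.936 in limma), beside 0% of all probe sets. Differences were positive for 17 of 29 genes, against 49.4% of all probe sets, with a median of 0.11, against 0.00 over all. Both tolerant values lay above both rejecting values for 9 genes and below for 5, beside 17.2% and 17.1% of probe sets. Without rejecting array 2 the median was 0.02, and without tolerant array 2 it was 0.06. At an unadjusted p under 0.05 there was 1 gene, Mx1, in the lower direction, beside 2.69% of probe sets lower, 2.46% higher and 5.15% in all. Since 0 of the 29 genes lay above the Olfr line on these arrays, the differences there are differences at background level.

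The arrays of the 2 sets share no sample, so genes without overlap in both can be counted. Both tolerant values exceeded both rejecting values within each set for 5 of 29 genes (Herc6, Oasl1, Oasl2, Rsad2 and Xaf1), beside 3.04% of all probe sets, and 0 of 29 showed the reverse, beside 3.2%. Herc6, Rsad2 and Xaf1 lay above the Olfr line on 0 of the 8 arrays. The interaction of group and set of arrays, which tests whether the difference is unequal between the sets, passed for 0 of 29 genes in limma (lowest adjusted p = 0.540), beside 0.0566% of all probe sets. It was above 0 for 16 of 29, beside 50.2% of all probe sets. At an unadjusted p under 0.05 it was positive for 2 genes (Mx1 and Ifit3) and negative for 0, beside 4.24% and 2.89% of all probe sets, or 7.13% together.

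**Figure D4:**
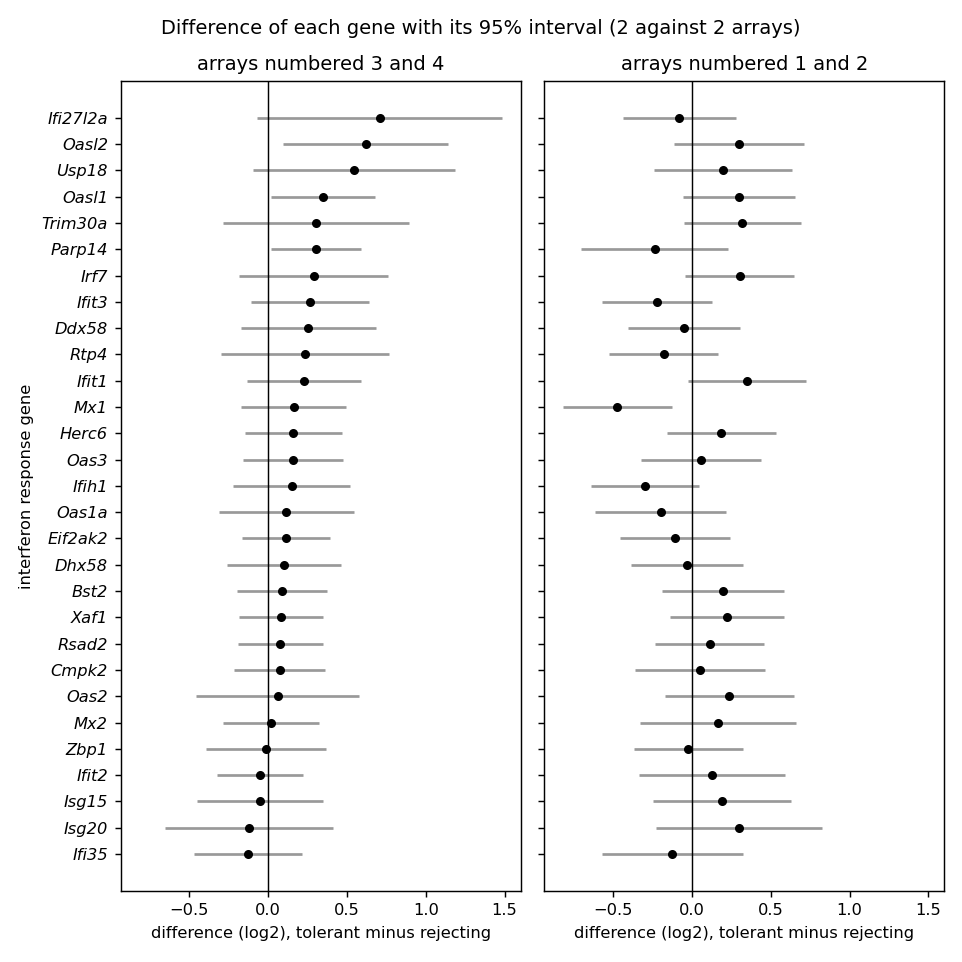
Difference of each interferon response gene (horizontal axis, log2, tolerant minus rejecting) with its 95% interval from limma, on the arrays numbered 3 and 4 (left) and 1 and 2 (right), in the order of the left panel. On the left 24 of 29 points lie right of 0, on the right 17 of 29, and no gene passed after adjustment.

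Scaling each array to its own Olfr background moved all genes together. The Olfr median was 0.38, 0.41, 0.18 and 0.16 on tolerant arrays 1 to 4, and 0.34, 0.37, 0.27 and 0.26 on rejecting arrays 1 to 4. With each array centred on it, the median difference of the 29 genes on arrays 3 and 4 was 0.24, with 27 of 29 positive, while that of all probe sets was 0.09, with 70.7% positive. On arrays 1 and 2 it was 0.08, while that of all probe sets was -0.04. The interaction had a median over all probe sets of 0.13 with this scaling and 0.00 without it, and over the 29 genes of 0.15 with it and 0.02 without it. Still 0 of 29 genes passed in any of these fits.

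Oligoadenylate synthetases make the short adenylate chains that activate RNase L, which cuts viral and cellular RNA. Of the 5 synthetases and synthetase-like proteins measured, 3 lay above the Olfr line on at least 2 arrays, beside 15.6% of all genes. On arrays 3 and 4, 5 of 5 had a positive difference, as had 24 of the 29 genes, beside 48.2% of all probe sets. Oasl2 (probe set 10524621), a synthetase-like protein with ubiquitin-like domains, read 0.74, 1.16, 1.19 and 1.77 on tolerant arrays 1 to 4, against 0.63, 0.66, 0.94 and 0.77 on rejecting arrays 1 to 4. Its tolerant values were higher within each set of arrays, and only tolerant arrays 3 and 4 exceeded the line. The means were 1.21 ± 0.42 in tolerant and 0.75 ± 0.14 in rejecting samples (SD, n = 4 each), a difference of 0.46 (SE 0.19, 95% interval 0.02 to 0.90, limma adjusted p = 1). On arrays 3 and 4 the difference was 0.62 (SE 0.21, limma adjusted p = 0.602), and without tolerant array 4 it was 0.33.

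Oasl1 (10524631), which in mouse is known to restrain translation of Irf7, read 0.96, 0.94, 1.32 and 1.44 on tolerant arrays 1 to 4, against 0.56, 0.74, 1.15 and 0.90 on rejecting arrays. It too was higher in tolerant samples within each set, with differences of 0.35 on arrays 3 and 4 (SE 0.13, limma adjusted p = 0.657) and 0.30 on arrays 1 and 2 (SE 0.16, limma adjusted p = 0.936). Rejecting array 3 also lay above its line. Oas2 (10533198) read 0.98, 0.58, 0.97 and 1.02 on tolerant arrays and 0.55, 0.54, 1.23 and 0.63 on rejecting arrays, so that its highest value was in a rejecting sample. Oas3 and Oas1a, the other synthetases, lay below the line on all 8 arrays, with differences of 0.11 and -0.04. A second probe set for Oas1a also carried the symbol Oas1g and was not used, and the synthetases are close relatives whose probes may share signal.

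None of the 4 sensors of nucleic acid separated the groups over all 8 arrays, nor did any other of the 29 genes. Of all probe sets, 1.09% were higher and 1.13% lower without overlap. Zbp1 (10490150), which binds left-handed nucleic acid and can trigger necroptosis, read 0.94, 0.93, 0.99 and 1.35 on tolerant arrays and 1.00, 0.92, 1.23 and 1.14 on rejecting arrays, a difference of -0.02 (SE 0.12, limma adjusted p = 1). Ifih1 (10483110), the sensor MDA5 of long double-stranded RNA, read 0.36, 0.31, 0.79 and 0.43 in tolerant and 0.63, 0.63, 0.45 and 0.48 in rejecting samples. Its tolerant values were below the rejecting ones on arrays 1 and 2 (difference -0.30, limma adjusted p = 0.936) and overlapped them on arrays 3 and 4. Ddx58, which encodes RIG-I, and Dhx58, its regulator LGP2, had differences of 0.10 and 0.04 and never crossed the line. On arrays 3 and 4, 3 of the 4 sensors had a positive difference, beside 48.2% of all probe sets. Ddx58 was at 0.26 there without overlap (limma adjusted p = 0.775), beside 19.3% of probe sets higher without overlap. On arrays 1 and 2, 0 of the 4 sensors had a positive difference (-0.30 to -0.02), beside 49.4% of all probe sets.

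Irf7 (10569102), the transcription factor that amplifies interferon-alpha production, read 0.68, 0.74, 0.83 and 1.22 on tolerant arrays 1 to 4, against 0.43, 0.38, 0.91 and 0.56 on rejecting arrays. Only tolerant array 4 exceeded the line, and rejecting array 3 lay above tolerant array 3. The means were 0.87 ± 0.24 in tolerant and 0.57 ± 0.24 in rejecting samples (SD, n = 4 each), with differences of 0.29 on arrays 3 and 4 and 0.30 on arrays 1 and 2 (limma adjusted p = 0.773 and 0.936). Without tolerant array 4 the difference on arrays 3 and 4 was 0.10.

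Among genes of ISG15 conjugation, Isg15 (10451287), the ubiquitin-like protein that is among the best known interferon targets, lay below the line on all 8 arrays. It read 0.94, 0.50, 0.25 and 0.62 on tolerant arrays and 0.42, 0.63, 0.58 and 0.40 on rejecting arrays, and the groups overlapped within both sets. Usp18, which removes ISG15 and blocks the interferon receptor, averaged 0.71 ± 0.39 in tolerant and 0.34 ± 0.20 in rejecting samples (SD, n = 4 each), a difference of 0.37 (SE 0.19, limma adjusted p = 1). Without tolerant array 4 the difference was 0.18.

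The IFIT proteins, which bind foreign RNA at its end, lay below the line on all 8 arrays. Ifit1 (10462623) had the smallest unadjusted p of the 29 over the 8 arrays. It read 0.45, 0.69, 0.24 and 0.48 on tolerant arrays and 0.28, 0.16, 0.01 and 0.25 on rejecting arrays, a difference of 0.29 (SE 0.11, limma adjusted p = 1). Its rejecting value exceeded that of only 5.86% of Olfr probe sets on array 3 and 12.9% on array 2, so the difference lies within the background range. Ifit2 and Ifit3 had differences of 0.04 and 0.02.

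The Mx GTPases, which trap viral nucleocapsids, never crossed the line either. Mx1 (10441233) read 0.05, -0.01, 0.39 and 0.62 on tolerant arrays and 0.52, 0.47, 0.42 and 0.26 on rejecting arrays. Tolerant values were below rejecting ones on arrays 1 and 2, a difference of -0.47 (SE 0.15, limma adjusted p = 0.936), and overlapped them on arrays 3 and 4, where the difference was 0.16. Its interaction was 0.64 (limma adjusted p = 0.540). Mx2 had a difference of 0.09 over all 8 arrays.

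The other antiviral effectors lay below the line on all 8 arrays apart from Isg20 (10554240), an exonuclease that degrades RNA. Isg20 read 0.88, 1.10, 0.81 and 1.40 in tolerant and 0.35, 1.03, 1.13 and 1.32 in rejecting samples, and its groups overlapped in both sets. Rsad2 (viperin, which makes a chain-terminating nucleotide), Cmpk2 (a nucleotide kinase encoded beside it), Eif2ak2 (the RNA-activated kinase PKR) and Bst2 (tetherin, which holds budding virus at the membrane) were above the line on 0 arrays. Their differences over all 8 arrays were 0.10, 0.06, 0.00 and 0.14.

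Of the 7 remaining genes, Ifi27l2a showed the largest difference on arrays 3 and 4. Ifi27l2a (10402347), a small membrane protein induced by interferon, read 0.28, 0.48, 0.74 and 1.71 on tolerant arrays, against 0.44, 0.48, 0.50 and 0.53 on rejecting arrays. The difference of 0.71 on arrays 3 and 4 (SE 0.31, 95% interval -0.07 to 1.49, limma adjusted p = 0.700) rests on tolerant array 4. Without that array it was 0.22. Trim30a (10566358), a regulator of NF-kappaB signalling, read 0.76, 0.93, 0.51 and 1.17 on tolerant and 0.43, 0.62, 0.67 and 0.41 on rejecting arrays. Tolerant array 3 was below rejecting array 3, so the groups overlapped there. Parp14 (10439249), an ADP-ribosyltransferase, read 0.45, 0.20, 1.03 and 1.04 in tolerant and 0.30, 0.81, 0.65 and 0.82 in rejecting samples. Its tolerant values were both higher on arrays 3 and 4 (difference 0.30, limma adjusted p = 0.659) and not on arrays 1 and 2 (difference -0.23). Xaf1 (an antagonist of the apoptosis inhibitor XIAP), Rtp4 (a receptor transporter), Herc6 (the ISG15 ligase in mouse) and Ifi35 (a signalling protein) had differences of 0.15, 0.03, 0.17 and -0.12.

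**Figure D5:**
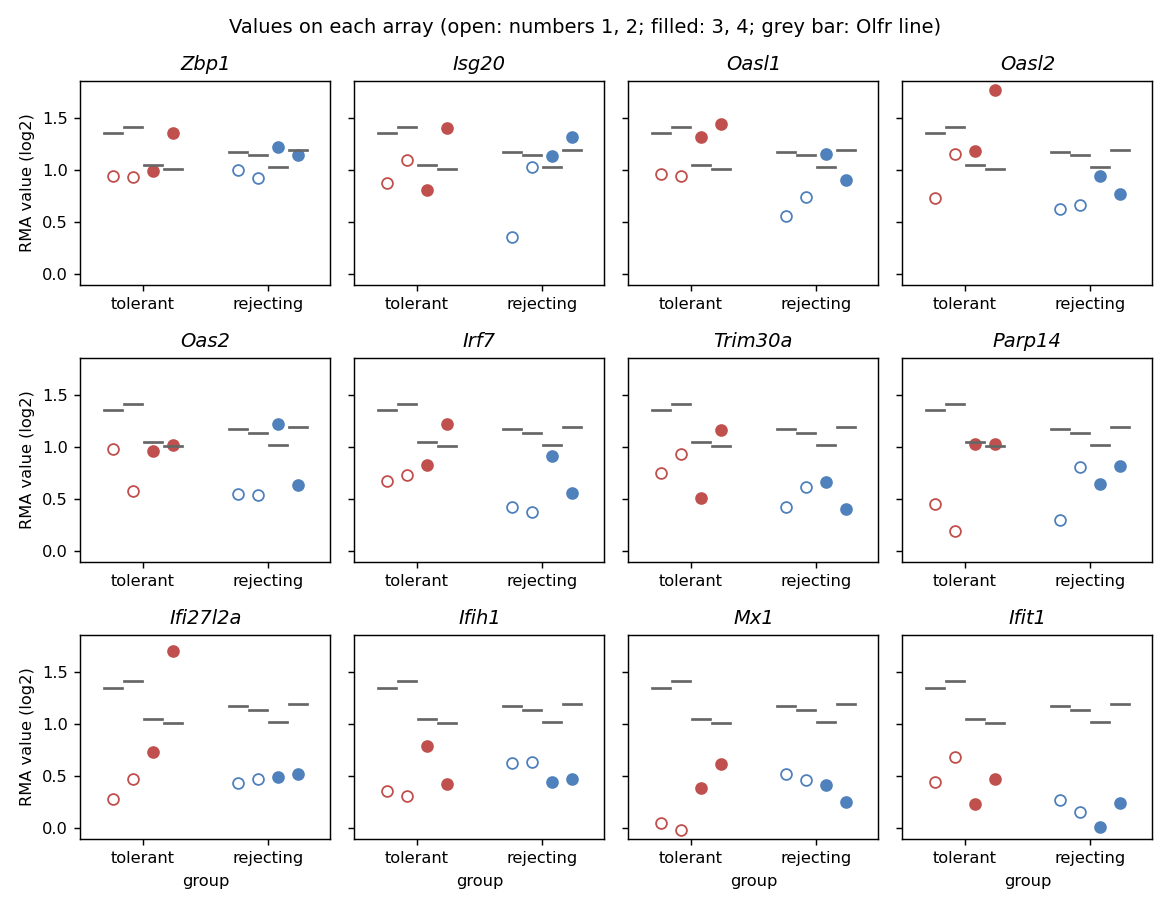
RMA values (vertical axis, log2) of 12 interferon response genes in tolerant (red, left) and rejecting (blue, right) samples, each point 1 array. Open points are numbers 1 and 2, filled points numbers 3 and 4, and grey bars the Olfr line of the array; every point above its bar is a filled one. Oasl2 and Ifi27l2a reached 1.77 and 1.71 on tolerant array 4, above their bar.

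The rest of the pathway was read from lists of ligands, receptor and signalling genes, upstream sensing genes and further interferon-stimulated genes. In limma 0 genes of these lists passed over all 8 arrays, on arrays 3 and 4 or on arrays 1 and 2, beside the 0%, 0.0518% and 0% of all probe sets given above. Of 12 measured ligand genes, 10 lay above the line on 0 arrays, beside 75.3% of all genes, and their median difference over all 8 arrays was -0.04. On arrays 3 and 4, 2 ligand genes had a positive and 10 a negative difference, with a median of -0.13. Ifnb1, which encodes interferon-beta, read 0.72, 0.16, 0.65 and 0.39 in tolerant and 0.48, 0.40, 0.33 and 0.36 in rejecting samples. The exceptions were Ifna12, at 1.85 on tolerant array 2, and Ifna9, at 1.48 on rejecting array 4. Interferon-alpha genes are near copies of each other, so their probe sets cannot be told apart with certainty. Ifne had a difference of -0.16.

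Of 10 measured receptor and signalling genes, 3 lay above the line on at least 2 arrays, beside 15.6% of all genes, and 6 of 10 had a positive difference over all 8 arrays, beside 50.1% of all probe sets. Ifnar1 read 0.49, 0.30, 0.94 and 0.84 in tolerant and 0.57, 1.20, 0.45 and 0.81 in rejecting samples, and Ifnar2 had a difference of 0.12. Jak1, the kinase bound to Ifnar2, read 0.45, 0.50, 1.59 and 1.66 on tolerant arrays, against 0.61, 0.68, 0.38 and 0.82 on rejecting arrays. On arrays 3 and 4 the difference was 1.02 (SE 0.17, limma adjusted p = 0.224), and on arrays 1 and 2 it was -0.17. Stat2 and Irf9 had differences of 0.17 each, with Stat2 highest on tolerant array 4 at 1.14. Socs1, a feedback inhibitor of the kinases, lay above the line on 5 arrays with a difference of -0.10. Ptpn11, a phosphatase of the pathway, had one of 0.19.

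Of 16 measured genes of upstream sensing, 4 lay above the line on at least 2 arrays, and 9 of 16 had a positive difference, beside the same 15.6% and 50.1%. Irf3, the factor that starts interferon-beta transcription, read 0.67, 0.80, 1.35 and 1.39 in tolerant and 0.65, 0.22, 0.72 and 1.13 in rejecting samples, a difference of 0.38 (SE 0.22, limma adjusted p = 1). Irf8, a factor of myeloid and dendritic cells, was highest on rejecting array 3 at 1.94. Ticam1, the adaptor of Tlr3, had a difference of 0.07.

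Of 45 further interferon-stimulated genes measured, 15 lay above the line on at least 2 arrays, beside 15.6% of all genes, and 4 on all 4 arrays numbered 3 and 4. On tolerant arrays 1 to 4 the number above the line was 1, 2, 13 and 16, against 2, 3, 9 and 5 on rejecting arrays. Their median difference was 0.05 over all 8 arrays and 0.11 on arrays 3 and 4, against 0.00 and -0.01 over all probe sets. On arrays 3 and 4, 29 of the 45 differences were positive, beside 48.2% of all probe sets. At an unadjusted p under 0.05 in limma, 10 were higher and 0 lower there, beside 4.63% and 2.57% of all probe sets. Over all 8 arrays, 0 were higher and 1 was lower at that level, beside 1.47% and 1.42%. Nlrc5, the activator of MHC class I genes, was above the line on all 8 arrays, at 2.06, 2.54, 2.76 and 2.86 in tolerant and 1.57, 2.48, 3.12 and 2.83 in rejecting samples, and did not separate the groups. Ly6e, a membrane protein that limits viral entry, read 0.94, 1.67, 3.18 and 4.56 in tolerant and 0.93, 1.40, 2.06 and 2.20 in rejecting samples. Its difference on arrays 3 and 4 was 1.74 (SE 0.43, limma adjusted p = 0.436). Shisa5 had a difference of 0.77 on those arrays. Ifitm3, a membrane protein that blocks viral fusion, named after its values were seen, had the lowest adjusted p of the list there, with 2.99 and 3.15 in tolerant and 1.29 and 0.84 in rejecting samples (limma adjusted p = 0.0581). Ly6e and Ifitm3 are also expressed outside an interferon response.

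Markers of other cells differed between the same arrays, and their part in these values was not tested. For 12 macrophage and monocyte markers, 6 and 5 lay above the line on tolerant arrays 3 and 4, against 4 and 0 on rejecting arrays 3 and 4. Of all genes, 16.1% and 15% lay above it on those tolerant arrays, and 13.6% and 8.15% on those rejecting arrays. The summed linear signal of the 12 markers was 39.5 and 44.7 on tolerant arrays 3 and 4, against 24.7 and 17.3 on rejecting arrays 3 and 4. The sum of 11 kidney tubule markers was 141 and 61.6 on tolerant arrays 3 and 4, against 19.9 and 20.6 on rejecting arrays 3 and 4. Linear sums weigh the brightest probe sets most. Among kidney markers Umod read 6.61 and 4.59 on tolerant arrays 3 and 4, while Kap, Lrp2 and Pvalb were above the line on 0 arrays. Both tolerant sums were above both rejecting sums for the macrophage and kidney tubule lists. The same held for the sums of interferon response genes, T cell markers and fibroblast markers given next. It also held for endothelial cell markers (11.7 and 10.1, against 9.99 and 8.47) and epithelial cell markers (14.9 and 13.5, against 11.3 and 12.4). Neutrophil markers showed the reverse (9.64 and 9.83, against 10.8 and 10.9), and the dendritic cell, B cell and NK cell lists overlapped. Among pathway lists it held for all but the ligands, which showed the reverse (16.5 and 14.7, against 17.4 and 17.9). Of all single probe sets, 19.3% had both tolerant values above both rejecting values on these arrays, which is not a share of sums. The sum of the 29 interferon response genes was 45.7 and 54.4 on tolerant arrays 3 and 4, against 44.0 and 43.2 on rejecting arrays 3 and 4. On arrays 1 and 2, where 0 of these genes lay above the line, the sum was 43.0 and 44.5 in tolerant and 41.7 and 42.1 in rejecting samples. Both rejecting sums on arrays 3 and 4 thus lay within the range seen at background level, and that of tolerant array 3 lay close to it. T cell markers summed to 25.3 and 37.8 on tolerant arrays 3 and 4, against 20.8 and 24.1 on rejecting arrays 3 and 4. Those of 8 fibroblast markers were 68.8 and 57.4 on tolerant arrays 3 and 4, against 31.0 and 25.7 on rejecting arrays 3 and 4. Tolerant array 4 had the highest of the 8 sums for the interferon response genes, the T cell markers and the macrophage markers, and tolerant array 3 for the kidney tubule and fibroblast markers. On the 4 tolerant arrays the sums spanned 17.97 to 44.7 for macrophage, 15.8 to 141 for kidney tubule, 16.8 to 37.8 for T cell and 15.9 to 68.8 for fibroblast markers. On the 4 rejecting arrays they spanned 16.8 to 24.7, 15.9 to 20.6, 17.1 to 24.1 and 15.1 to 31.0 for the same lists. Of 7 markers of plasmacytoid dendritic cells, the main producers of interferon-alpha, 1 lay above the line on each of tolerant arrays 3 and 4, and 2 on rejecting array 3. Of all genes, 16.1%, 15% and 13.6% lay above it on these arrays. The markers were Irf8 on each of them, a gene also counted under upstream sensing, and Tcf4 on rejecting array 3. The other 5 markers, Siglech among them, were above the line on 0 arrays. Neutrophil and NK cell markers were above the line on 0 arrays.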

How the data were processed

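Total RNA of 8 samples was measured on Affymetrix whole-transcript arrays. The deposited log2 values cover 35556 probe sets. Per the submitters' processing notes the authors used RMA in Expression Console. RMA corrects background, quantile normalizes and summarises probes, so array-wide differences are partly evened out. The sources used here give no version, library file or build, and base 2 was inferred from the range of values (-0.97 to 12.7). Probe sets were named from the platform annotation: 21218 had 1 symbol, 1881 several and 12457 none listed. The highest-mean probe set stood for a gene. The table holds no detection calls. The number of arrays limits the precision.

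Tolerant minus rejecting was fitted with limma 3.58.1 (R 4.3.3; lmFit, eBayes without trend, 2-sided, Benjamini-Hochberg over 21218 probe sets, threshold 0.05), after a check on simulated data. The check gave all probe sets a common spread and no difference between the sets of arrays. It therefore does not show how many real differences these fits would miss. Plots used Python 3.11.15 and matplotlib 3.10.9. Alternatives covered centring, quantile normalization, filters, probe set choice, moderation, blocks and leaving out each array. Members and lists were chosen with earlier results of these data known. Of 96 pathway genes listed, 83 were matched. Isg15 values are given in addition, and Isg15 is not among the 12 genes described in full. By rule, values are given for genes above the line on at least 2 arrays. They are also given for the 4 genes with the smallest unadjusted p in each fit of tolerant against rejecting. For other lists they are given for Ifnar1, Ifnar2, Stat2, Irf9, Ifnb1 and up to 3 genes, those above the line on most arrays, then by p.

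For same-numbered arrays, deviations from their group means had correlations of 0.499, 0.507, 0.410 and 0.599 for numbers 1 to 4, above the bound of 0.1 for treating numbers as pairs. The pairing comes from the data, not the labels, and arrays 1 with 2, or 3 with 4, of opposite groups correlated as much (0.411 to 0.581).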

Additional observations from a re-analysis of the deposited data

Results flagged for a closer look

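Of 58 groups of 4 values (29 genes in 2 groups), 5 held a sample far from the other 3, where chance alone flags about 1 in 20 groups. Zbp1 read 1.35 on tolerant array 4, against 0.93 to 0.99 on the other tolerant arrays. Usp18 read 1.29 on tolerant array 4, against 0.45 to 0.58 on the others. Oas2 read 0.58 on tolerant array 2, against 0.97 to 1.02 on the others, and 1.23 on rejecting array 3, against 0.54 to 0.63 on the others. Ifit2 read 0.66 on rejecting array 1, against 0.19 to 0.24 on the others. The values of Zbp1 and Usp18 on tolerant array 4 and of Oas2 on rejecting array 3 lay above the Olfr line of their array, and the other 2 below it.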

How the results depend on the processing

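In every alternative fit, 0 of the 29 genes passed; on the arrays numbered 1 and 2, 0 of them were left once dim probe sets were removed. Of 466 values of the 12 genes described in full, 24 turned sign and 0 passed (lowest adjusted p = 0.364 in limma). With the replicate block, 0 members passed and 8 probe sets passed on arrays 3 and 4, against 11 without it, so the block changed no call of a member. Over all 8 arrays, the number of probe sets at an unadjusted p under 0.05 was 1123 under the replicate block and 1187 under a block for the array set, against 613 under neither, and that of members 3 and 4, against 2. On arrays 3 and 4 the count of probe sets called was 19 with Olfr centring, 5 without dim probe sets, 0 with all probe sets tested, 45 with probe sets averaged per gene and 26 with trend and robust moderation, and 0 to 48 with 1 array left out (0 without tolerant array 3 or 4, 48 without rejecting array 4). On arrays 1 and 2 it was 0 to 2 with 1 array left out (2 without tolerant array 2), against 0. The interaction called 12, against 27 with Olfr centring, 0 with quantile normalization or all probe sets tested, and 0 to 76 with 1 array left out (0 without tolerant array 3, 76 without rejecting array 4). The members' median difference on arrays 3 and 4 was 0.149, against 0.242 with Olfr centring and 0.0475 to 0.249 with 1 array left out. On arrays 1 and 2 it was 0.113, against 0.0755 and 0.0196 to 0.0862. With the 95th percentile as the line, 3, 2, 12 and 19 members lay above it on tolerant arrays 1 to 4 and 3, 2, 7 and 7 on rejecting arrays 1 to 4, beside 11%, 10.2%, 44.8% and 42.5% of all genes on the tolerant arrays and 16%, 15.3%, 36% and 31.5% on the rejecting arrays. With Vmn receptors added to the line, rejecting array 4 had 2 members above it. The cause of these shifts was not tested. Leaving out an array leaves 1 against 2 within a set, and the lone sample is assumed to vary like the others. The median of members that pass a filter on dim probe sets is not given, since a member could pass through its higher group.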
